A study of Mus musculus with 9 samples.

Results

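Keratins are the structural proteins of the epithelial intermediate filament, and the 7 keratin genes Krt5, Krt8, Krt14, Krt15, Krt17, Krt18 and Krt19 were examined together with Trp63 in fetal thymic lobes. Members were found by gene symbol in the annotation of the array, and the transcript cluster (the array's unit for a gene) with the highest mean was to stand for a symbol. Each of the 8 members had 1 cluster, out of 19505 gene symbols measured. Total RNA came from embryonic thymic lobes of C57BL/6 mice at stage e13.5 of embryonic development and was hybridised to Clariom S mouse arrays, 1 biotin-labelled sample per array. There were 3 arrays of wild type mice, 3 of Foxn1933/1089 mice and 3 of Tbx1neo2/neo2 mice. The Foxn1933/1089 mice (here, Foxn1 mutants) carried the allele pair of Foxn1 that this name gives, Foxn1 being the transcription factor that drives differentiation of thymic epithelium. The Tbx1neo2/neo2 mice (here, Tbx1 mutants) were homozygous for neo2, an allele known to lower expression of Tbx1, a T-box factor of the pharyngeal pouches. Whether the 3 samples of a group were separate embryos, litters or pools is not in the labels, so a p-value here covers the spread of these 3 samples, which may be technical.

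A keratin filament is built from pairs of an acidic type I and a basic type II protein. In simple epithelia the pair is Krt8 (type II) with Krt18 (type I), and in the basal cells of stratified epithelia it is Krt5 (type II) with Krt14 (type I). Krt15, Krt17 and Krt19 are further type I keratins. In the postnatal thymus Krt8 and Krt18 mark cortical epithelium, Krt5 and Krt14 mark medullary epithelium, and cells with Krt5 and Krt8 together are described at the border of the regions and in the early rudiment. Trp63 encodes p63, a relative of p53 that sustains the proliferative potential of epithelial progenitors, those of the thymus included.

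Promoter sequences are shown for Krt5, Krt8 and Krt18, 3 keratins whose values moved together across the arrays, so that the letters around their starts can be compared. They are RefSeq sequences of assembly GRCm38.p6, each from 250 bases before to 50 after the annotated start, written 5′ to 3′ on the gene's strand. Of the 8 members, 4 had an entry in the sequence table. The capitals mark matches on either strand to a single unit of the p53-family site, a motif of which p63 and p53 bind a pair, to TATAAA, or to GACGC, the core motif known for Foxn1.
Krt5, chr15:101712856-101713155, minus strand: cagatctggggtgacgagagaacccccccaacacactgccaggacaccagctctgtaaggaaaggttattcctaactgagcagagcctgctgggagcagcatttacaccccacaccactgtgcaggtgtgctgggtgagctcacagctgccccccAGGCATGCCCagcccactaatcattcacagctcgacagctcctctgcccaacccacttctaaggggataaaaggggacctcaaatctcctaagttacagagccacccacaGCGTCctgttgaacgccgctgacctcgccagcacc
Krt8, chr15:102004293-102004592, minus strand: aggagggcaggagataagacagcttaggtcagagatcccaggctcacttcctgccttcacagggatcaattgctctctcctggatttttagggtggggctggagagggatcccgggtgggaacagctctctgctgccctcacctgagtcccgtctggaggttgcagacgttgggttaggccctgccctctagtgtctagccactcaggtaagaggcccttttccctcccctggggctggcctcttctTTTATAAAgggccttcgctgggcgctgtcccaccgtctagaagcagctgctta
Krt18, chr15:102027966-102028265, plus strand: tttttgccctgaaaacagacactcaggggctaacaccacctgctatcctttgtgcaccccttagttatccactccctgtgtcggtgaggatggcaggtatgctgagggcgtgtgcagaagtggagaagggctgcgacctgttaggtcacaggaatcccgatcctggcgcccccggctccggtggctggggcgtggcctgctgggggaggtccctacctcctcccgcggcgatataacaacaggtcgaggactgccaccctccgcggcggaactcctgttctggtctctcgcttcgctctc
In Krt5 the longer capitals are a match to that single p53-family unit, with no second one in the window, and the shorter ones GACGC on the opposite strand. In Krt8 the capitals are 2 overlapping matches to TATAAA, 1 on each strand. Krt18 had a match to none of these motifs in its window. The other motifs searched on both strands were CATG, found in Krt5 inside the p53-family unit and in 61.1% of all promoters; the AP-2 motif GCCNNNGGC, found in Krt18 and in 16.6%; and the AP-1 motif TGANTCA, found in none of these windows and in 7.81%. The single p53-family unit was present in 8.36% of all 32851 promoters of this length, TATAAA in 13.6% and GACGC in 27.2%, and no motif was shared by these promoters. The Krt18 window had a GC content of 61.3% and 17 CpG dinucleotides, the Krt8 window 58.0% and 6, and the Krt5 window 57.7% and 6, beside medians of 52.7% and 7 over all promoters. A match describes the letters of the window and shows no binding.

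The values are log2 array signals with array medians between 5.09 and 5.20, with a precision limited by how many arrays there are. The medians of the 5222 negative-control probes lay between 4.27 and 4.94, and their 95th percentiles between 8.03 and 9.70, so a value under about that level cannot be told from background by its size alone. On 2 arrays, those of wild type replicate 1 and of Foxn1 mutant replicate 2 (the low arrays), the cortical thymic protease gene Prss16 read 4.24 and 4.45, against 13.87 to 14.43 on the other 7 arrays, and the thymoproteasome gene Psmb11 read 3.40 and 3.36, against 9.52 to 10.66. These 2 libraries go against the labelled tissue in those markers, and the genotype comparisons are given with and without them. Foxn1 read 7.78 to 10.35 for wild type, 8.73 to 9.67 for Foxn1 mutants and 8.88 to 10.04 for Tbx1 mutants, and Tbx1 read 4.25 to 5.85, 4.07 to 4.83 and 4.80 to 5.38, so neither gene separated its mutant from wild type. All Tbx1 values were under the negative controls' 95th percentile, so the array gave no clear Tbx1 signal in any genotype. Where the probes of Foxn1 and Tbx1 lie relative to the altered part of each gene is unknown here, so these levels do not check the labels. In bulk RNA, fewer epithelial cells and less keratin RNA per cell cannot be told apart.

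Krt8 and Krt18, the keratins of simple epithelium, were high on 7 arrays of all 3 genotypes and lower by more than 3 log2 units on the other 2. Krt8 read 12.12, 15.89 and 15.97 on wild type replicates 1, 2 and 3. It read 15.64, 12.37 and 15.62 for Foxn1 mutants and 15.63, 15.87 and 15.96 for Tbx1 mutants. The low values were those of wild type replicate 1 and Foxn1 mutant replicate 2, and the remaining arrays lay within 0.35 log2 units of each other, whatever the genotype. Krt18 read 11.48, 15.42 and 15.56 for wild type, 15.39, 11.06 and 15.56 for Foxn1 mutants, and 15.25, 15.90 and 15.92 for Tbx1 mutants. The same 2 arrays were low, and the others spanned 0.67. Even there both genes exceeded the 95th percentile of the negative controls, as they did on all 9 arrays. Means for wild type, Foxn1 mutants and Tbx1 mutants were 14.66 ± 2.20, 14.54 ± 1.88 and 15.82 ± 0.17 for Krt8 (SD, n = 3), and 14.15 ± 2.32, 14.00 ± 2.55 and 15.69 ± 0.38 for Krt18. The genotype ranges overlapped for both genes, and the large SDs of wild type and Foxn1 mutants came from 1 array each.

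**Figure D1:**
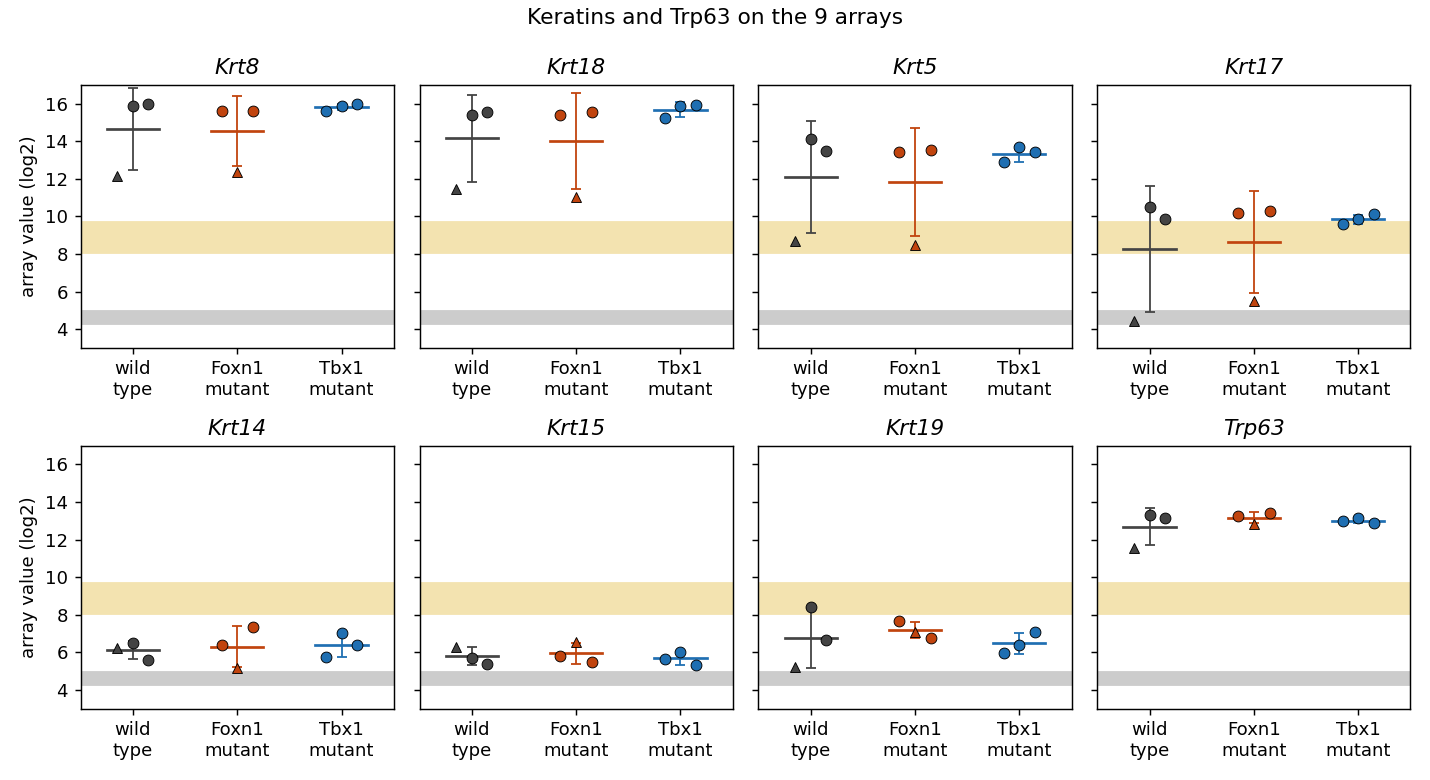
Array values (log2) of the 8 genes in 3 wild type, 3 Foxn1 mutant and 3 Tbx1 mutant samples, with the mean (line) and SD (bar) of each genotype. Triangles are the low arrays (replicate 1 of wild type, replicate 2 of the Foxn1 mutants), the grey band spans the medians of the negative controls (4.27 to 4.94) and the yellow band their 95th percentiles (8.03 to 9.70); Krt8, Krt18, Krt5 and Krt17 drop on the triangles, Trp63 stays above 11.5, and Krt14, Krt15 and Krt19 lie under the 95th percentile of their own array throughout.

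Krt5, the type II keratin of basal cells, followed the same pattern and reached background on the low arrays. It read 8.68, 14.14 and 13.496 for wild type, 13.42, 8.50 and 13.52 for Foxn1 mutants, and 12.87, 13.70 and 13.44 for Tbx1 mutants. On both low arrays it fell short of the 95th percentile of the negative controls (9.70 and 9.08), so that the size of its drop, like that of Krt17, is not measured beyond that level. On the other 7 arrays it spanned 1.26. Genotype means were 12.11 ± 2.98, 11.81 ± 2.87 and 13.34 ± 0.42 (SD, n = 3). Its usual partner Krt14 did not share the pattern. Krt14 read 6.23, 6.50 and 5.58 for wild type, 6.40, 5.16 and 7.35 for Foxn1 mutants, and 5.73, 7.01 and 6.39 for Tbx1 mutants. All 9 values were under the negative controls' 95th percentile, so the array gave no clear Krt14 signal in any genotype. The genotype means of Krt14 were 6.10 ± 0.47, 6.30 ± 1.10 and 6.38 ± 0.64.

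Krt17, a type I keratin known from basal and stressed epithelia, moved with Krt5, as did the type I keratin Krt18. It read 4.42, 10.49 and 9.86 for wild type, 10.16, 5.47 and 10.27 for Foxn1 mutants, and 9.59, 9.84 and 10.10 for Tbx1 mutants. It exceeded the negative controls' 95th percentile on 7 arrays, and on wild type replicate 1 it was under their median. Genotype means were 8.26 ± 3.34, 8.64 ± 2.74 and 9.84 ± 0.25. Krt14, Krt16 and Krt17 are related type I genes, and how far their probes differ is not stated in the files. Krt16 read between 2.72 and 4.49 on the 9 arrays, which is at background.

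Krt15 and Krt19, type I keratins of basal and simple epithelia, did not exceed the negative controls' 95th percentile on any array, and their differences are between values that the size of the signal does not separate from background. Krt15 read 6.30, 5.68 and 5.40 for wild type, 5.82, 6.55 and 5.47 for Foxn1 mutants, and 5.66, 6.04 and 5.34 for Tbx1 mutants. It was highest on the 2 arrays where Krt5, Krt8, Krt17 and Krt18 were lowest, as were 7.83% of all clusters. Krt19 read 5.20, 8.40 and 6.64 for wild type, 7.66, 7.10 and 6.78 for Foxn1 mutants, and 5.95, 6.37 and 7.10 for Tbx1 mutants. Its highest and lowest values were both wild type arrays, replicates 2 and 1, so the wild type range covered those of both mutants. On Foxn1 mutant replicate 2 it lay above its own median over the arrays by 0.31.

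Trp63 was well above background on all 9 arrays and moved less than Krt5, a keratin it is known to activate in basal epithelium: the SD over the 9 arrays was 0.56 for Trp63 and 2.20 for Krt5. It read 11.55, 13.32 and 13.16 for wild type, 13.25, 12.82 and 13.40 for Foxn1 mutants, and 12.97, 13.17 and 12.90 for Tbx1 mutants. Wild type replicate 1 was the lowest and Foxn1 mutant replicate 2 the next, but the latter, at 12.82, was close to the lowest of the remaining arrays, which spanned 12.90 to 13.40. Measured from each gene's own median over the 9 arrays, Foxn1 mutant replicate 2 was at -0.34 for Trp63 and at -3.27 for Krt8, which was above background there. Wild type replicate 1 was at -1.61 for Trp63 and at -3.51 for Krt8. Genotype means of Trp63 were 12.68 ± 0.98, 13.16 ± 0.30 and 13.01 ± 0.14 (SD, n = 3).

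Foxn1 mutants were set against wild type to ask how these genes differ in thymic lobes with these Foxn1 alleles. None of the 8 members passed, at an adjusted p of 0.05 in limma with all 9 arrays, where 0% of the 22206 clusters did (898 clusters, 4.04%, at an unadjusted p of 0.05, and 0 of the members). The differences, Foxn1 mutant minus wild type, were -0.12 ± 1.10 for Krt8 (SE), -0.15 ± 1.31 for Krt18, -0.29 ± 1.57 for Krt5 and 0.38 ± 1.63 for Krt17. They were 0.48 ± 0.42 for Trp63, 0.20 ± 0.53 for Krt14, 0.16 ± 0.34 for Krt15 and 0.43 ± 0.68 for Krt19. Every adjusted p was 1.00, and exact permutation p-values over the 6 arrays were 0.6 to 0.9, where the smallest that 3 against 3 can give is 0.1. With wide intervals such as -3.82 to 3.24 for Krt5 (95%), these 9 arrays do not show that the genotypes are alike.

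Without the 2 low arrays the intervals narrowed for the keratins that had dropped, and still 0 members passed (0% of clusters, and 0 members among the 1247 clusters at an unadjusted p of 0.05). Krt8 was then at -0.30 (95% interval -0.80 to 0.20), Krt18 at -0.01 (-0.65 to 0.63), Krt5 at -0.35 (-1.10 to 0.40) and Krt17 at 0.04 (-0.61 to 0.69). Trp63 was at 0.08 (-0.42 to 0.59). These intervals come from 2 arrays against 2 and leave out the lowest Krt8 and Trp63 value of each genotype, so they do not bound a change over all samples; with all 9 arrays the interval of Krt8 was -2.59 to 2.35. Krt14, at 0.83 (-0.28 to 1.95), and Krt19, at -0.30 (-1.65 to 1.05), were less closely bounded, and Krt15 was at 0.11 (-0.54 to 0.76).

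Tbx1 mutants were set against wild type to ask whether the hypomorphic Tbx1 allele alters these genes. The titles of all 3 wild type samples begin with Foxn, as those of the Foxn1 mutants do, and the titles of the Tbx1 mutants with Tbx, so whatever this prefix stands for and the Tbx1 genotype cannot be told apart. With all 9 arrays 0 of the 8 members passed, where 0.0135% of clusters did (3.79% at an unadjusted p of 0.05, and 0 of the members). The differences, Tbx1 mutant minus wild type, were 1.16 ± 1.10 for Krt8 (SE), 1.53 ± 1.31 for Krt18, 1.23 ± 1.57 for Krt5, 1.59 ± 1.63 for Krt17 and 0.34 ± 0.42 for Trp63. Those of Krt14, Krt15 and Krt19 were 0.27 ± 0.53, -0.12 ± 0.34 and -0.28 ± 0.68. The values of Krt5, Krt8, Krt15, Krt17 and Trp63 changed sign without wild type replicate 1. With both low arrays left out, Krt8 was at -0.11 (95% interval -0.57 to 0.35), Krt5 at -0.48 (-1.16 to 0.21), Krt17 at -0.33 (-0.92 to 0.26), Trp63 at -0.23 (-0.69 to 0.23) and Krt18 at 0.20 (-0.39 to 0.78). Krt19 was at -1.05 (-2.28 to 0.18), the largest of the 8 differences here, with an unadjusted p of 0.0856 and an adjusted p of 0.666 in limma. Krt14 was at 0.34 (-0.68 to 1.36) and Krt15 at 0.14 (-0.45 to 0.74). In that fit 0.00901% of clusters and 0 members passed (8.07% of clusters and 0 members at an unadjusted p of 0.05).

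Foxn1 mutants and Tbx1 mutants, which share these arrays with the comparisons above, were also set against each other. With all 9 arrays 0 members passed, where 0% of clusters did (2.98% at an unadjusted p of 0.05, and 0 members), and the differences, Foxn1 mutant minus Tbx1 mutant, ran from -1.68 ± 1.31 for Krt18 (SE) to 0.71 ± 0.68 for Krt19. Without the 2 low arrays they ran from -0.21 for Krt18 (95% interval -0.79 to 0.37) to 0.75 for Krt19 (-0.48 to 1.98), and Trp63 was at 0.31 (-0.14 to 0.77), with 0 members passing beside 0.00901% of clusters (8.53% and 0 members at an unadjusted p of 0.05). A moderated F test for any difference among the 3 genotypes gave 0 of the 8 members, where 0.00901% of clusters passed (3.22% at an unadjusted p of 0.05, and 0 members; lowest unadjusted p among the members 0.402, for Krt18). For none of the 24 pairs of gene and comparison did the arrays of the genotypes separate without overlap, which 8.29% to 9.45% of all clusters did. In the order of genotype means no neighbours differed beyond their spread for any member.

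**Figure D2:**
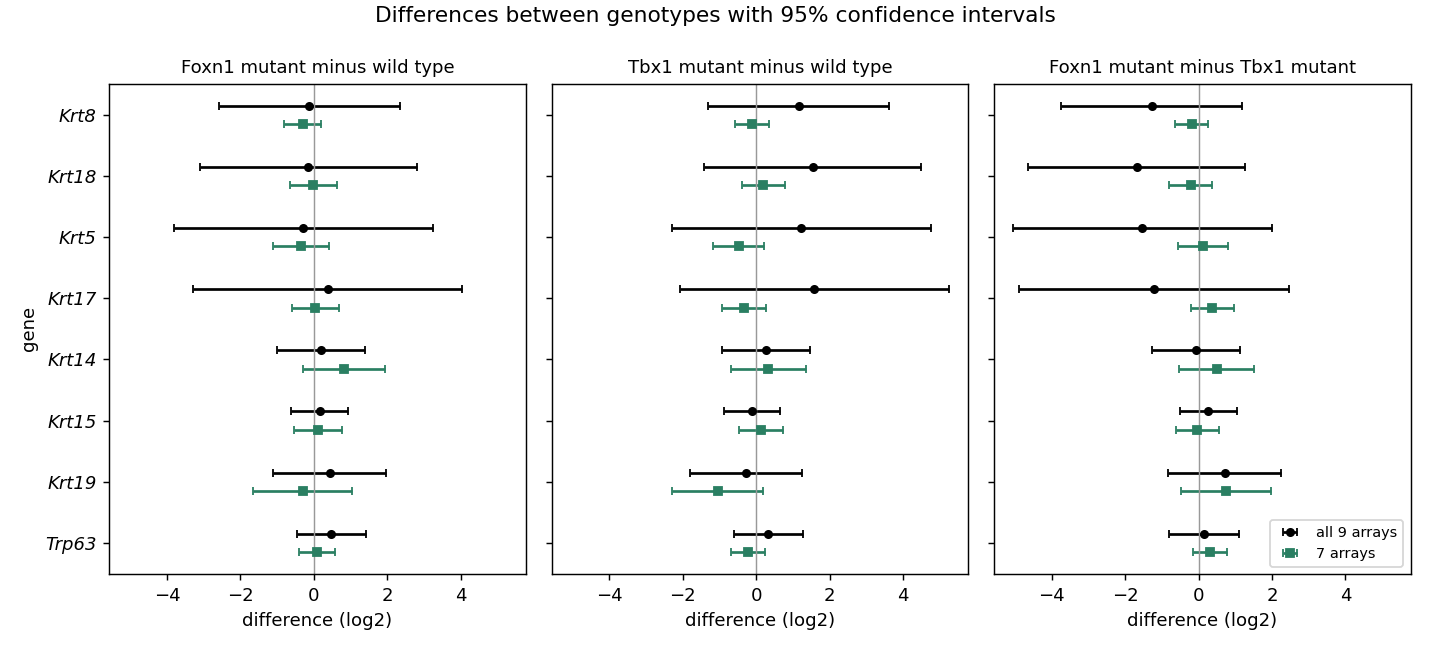
Difference between genotypes in log2 units for each gene, with the 95% confidence interval from limma, over all 9 arrays (circles) and over the 7 arrays left without wild type replicate 1 and Foxn1 mutant replicate 2 (squares). All intervals cross 0, and those of Krt8, Krt18, Krt5 and Krt17 narrow when the 2 arrays are left out.

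Each sample title carries 1 of 3 date codes (here A, B or C), and what the date refers to is not stated there. The third wild type, second Foxn1 mutant and first Tbx1 mutant replicate carry code A. Under code B come replicate 2 of wild type with replicates 1 and 3 of the Foxn1 mutants, and under code C replicate 1 of wild type with replicates 2 and 3 of the Tbx1 mutants. Within code A, with 1 array each, Foxn1 mutant minus wild type was -3.60 for Krt8, -4.50 for Krt18, -5.00 for Krt5, -4.39 for Krt17 and -0.34 for Trp63. Within code B it was -0.26, 0.06, -0.67, -0.27 and 0.01 for these genes in the same order. Within code A, Tbx1 mutant minus wild type was -0.34, -0.31, -0.62, -0.27 and -0.19 for these genes, and within code C it was 3.79, 4.43, 4.89, 5.55 and 1.48. The large differences were thus those of the codes and comparisons that hold a low array on 1 side, and they have opposite signs in codes A and C. With the code as a fixed block, Foxn1 mutant minus wild type was -1.95 for Krt5 and -1.42 for Krt17, and Tbx1 mutant minus wild type was 2.90 and 3.38, with 0 members passing (lowest adjusted p 0.458 over the comparisons).

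Krt5, Krt8, Krt17 and Krt18 formed a group by the direction and size of their changes over the arrays, and Trp63 stood outside it. Krt14, Krt15 and Krt19 did too, but they were under the negative controls' 95th percentile on every array and so had no clear signal that could drop. Likeness was measured as the root mean square distance between 2 genes' log2 values over the 9 arrays after each was centred on its own mean, a measure that the 2 low arrays dominate. Krt5 lay 0.36 from Krt17, with 5 of all other clusters nearer to Krt5, and 0.41 from Krt18. Krt8 lay 0.39 from Krt18, with 12 clusters nearer to Krt8 and 2 nearer to Krt18. Krt5 lay 1.82 from Krt14, its partner in basal cells, and 2148 clusters were nearer to Krt5 than Krt14 was. Krt5 lay 1.69 from Trp63, and 1155 clusters were nearer to Krt5 than Trp63 was. The values were not scaled, so the distance counts the size of a change as well as its direction. Trp63, too, had its 2 lowest values on the 2 low arrays, but with smaller drops.

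The named clusters nearest to each member were of varied kinds. For Krt8 they were the desmosomal cadherin gene Dsc2 (distance 0.22), the phospholipid transfer gene Pltp (0.29) and Pdlim1 (0.30), a gene of actin-bound proteins. For Krt18 they were Cd274, which encodes the ligand PD-L1 (0.32), Ndrg3 (0.37) and Krt8. For Krt5 they were Acap1 (0.30), Crip3 (0.31) and Rassf5 (0.34), a gene of a Ras effector of lymphocytes, and for Krt17 they were Rassf5 (0.33), Crip3 (0.35) and Krt5. For Trp63, whose values moved less than those of Krt5, Krt8, Krt17 and Krt18, Naa20, Trmt2a and Stk16 lay within 0.12 to 0.13. With 4837 clusters within 0.5 of Trp63, its pattern singles out no gene. The SD of Trp63 over the 9 arrays was still at or above that of 84.29% of all clusters. The genes nearest to Krt14 (Il1f9, Rap1gap2 and Rnase13, 0.32 to 0.33), Krt15 (Cyp2c67, Tac4 and Gm6902, 0.13 to 0.16) and Krt19 (Chrng, Cfb and Vwa5a, 0.42 to 0.45) had means between 2.72 and 4.57, at or near the background.

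**Figure D3:**
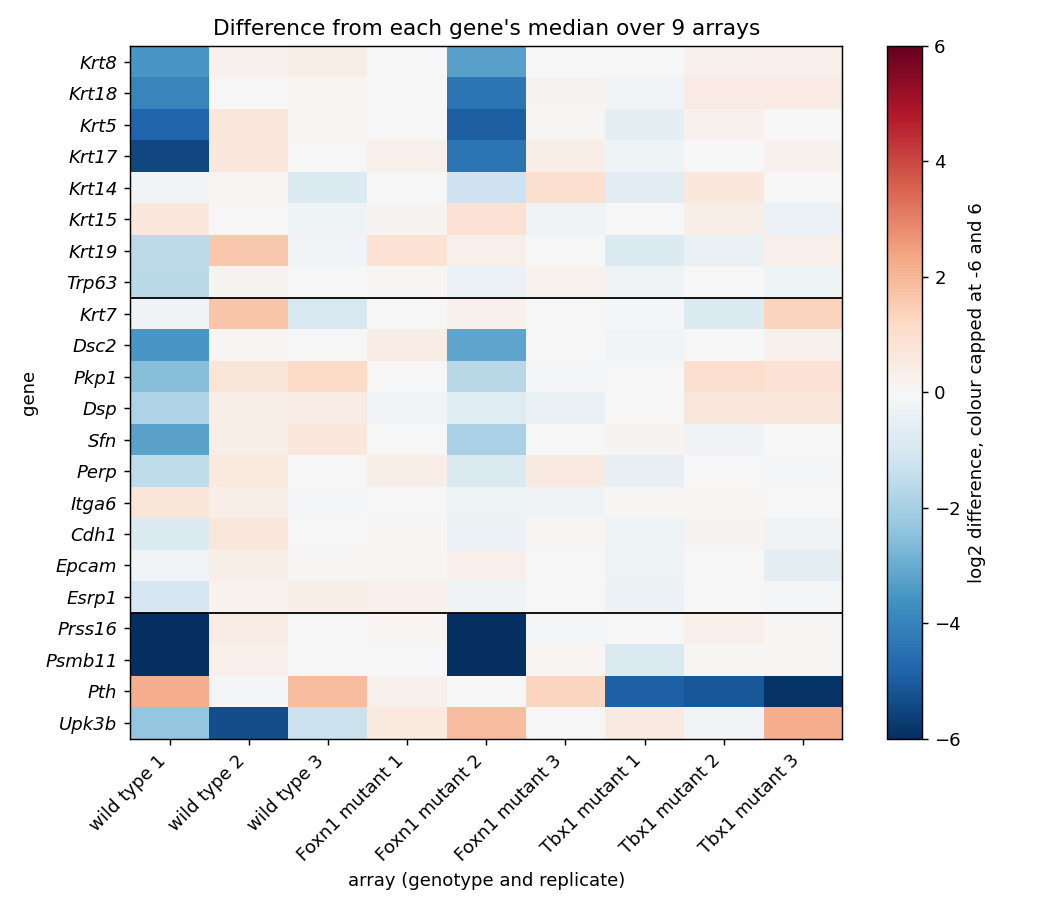
Difference of each array's value from the gene's median over the 9 arrays (log2, colour capped at -6 and 6) for the 8 genes, for 10 other epithelial genes and for the thymic markers Prss16 and Psmb11, the parathyroid hormone gene Pth and the mesothelial gene Upk3b. Krt8, Krt18, Krt5 and Krt17 are low in the same 2 columns as Dsc2, Prss16 and Psmb11, while Cdh1 and Epcam stay within 1 unit of their medians there. Epcam is under the negative controls' 95th percentile in both of these columns, so a drop of Epcam could hardly show.

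Of the other keratins, 41 of the 47 listed were measured, and 1 of them, Krt7, exceeded the negative controls' 95th percentile on 5 or more arrays. Krt7, a type II keratin of ducts and of mesothelium, read 8.71, 10.59 and 7.94 for wild type, 8.92, 9.17 and 8.92 for Foxn1 mutants, and 8.83, 8.11 and 10.24 for Tbx1 mutants. The 2 low arrays were at -0.21 and 0.25 from its median. Krt7 exceeded the negative controls' 95th percentile on 6 arrays. On wild type replicate 1 it was under that level (9.70), and on Foxn1 mutant replicate 2 just above it (9.08). A drop of Krt7 on these 2 arrays could therefore hardly show. Foxn1 mutant minus wild type was -0.08 ± 0.68 (SE) and Tbx1 mutant minus wild type -0.02 ± 0.68 for Krt7. None of the 41 genes passed in a comparison over all 9 arrays, and their median differences were 0.004, 0.01 and -0.06, beside 0.02, 0.01 and 0.01 over all clusters. The lowest F-test p-values belonged to Krt71, Krt28 and Krt12, hair follicle and corneal keratins whose means by genotype lay between 2.56 and 4.67, at background. Krt1 and Krt10, of suprabasal epidermis, and Krt13, of suprabasal mucosa, also stayed at background, between 2.35 and 4.34.

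Genes linked to p63 in basal epithelium were taken as a list of 20, of which 18 were measured and 6 exceeded the negative controls' 95th percentile on 5 or more arrays. None of the 18 passed in any of the 3 comparisons over all 9 arrays, with median differences of 0.13 (Foxn1 mutant minus wild type), 0.11 (Tbx1 mutant minus wild type) and -0.03 (Foxn1 mutant minus Tbx1 mutant). Without the 2 low arrays these medians were -0.12, -0.11 and -0.04, with the sign of the first and the second turned. The lowest F-test p-values were those of the laminin-binding integrin gene Itga6, with genotype means of 13.62 ± 0.41, 13.08 ± 0.17 and 13.31 ± 0.07 (SD, n = 3, for wild type, Foxn1 mutants and Tbx1 mutants), of Itga3 and of Fras1, a basement membrane gene. Itga6 was highest on wild type replicate 1, at 14.0, an array on which Krt5 was low. Sfn, the epithelial 14-3-3 protein gene, moved with the keratins and read 7.56 and 8.84 on the low arrays against 10.59 to 11.42 on the rest. Sfn was under the negative controls' 95th percentile on both low arrays. Perp, a desmosomal p63 target, read 9.89 and 10.54 there against 10.91 to 11.97. Of the relatives and partners of p63, 5 of 6 were measured and 0 passed. The cell cycle inhibitor gene Cdkn1a, with the lowest F-test p of these, was at -1.31 ± 0.66 (SE) in Foxn1 mutant minus wild type, and the p53 relative Trp73 read 2.35 to 3.15, at background, as Ppp1r13l was under the 95th percentile on every array.

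Desmosomes anchor keratin filaments at cell contacts, and 9 of 11 listed genes of desmosomes and keratin linkers were measured, 3 of them (Dsp, Jup and Dsc2) above the negative controls' 95th percentile on 5 or more arrays. None passed in a comparison, and the medians of the differences were -0.20, 0.17 and -0.30 over all 9 arrays and -0.23, -0.004 and -0.0002 without the 2 low arrays. Dsc2 read 7.55, 11.11 and 11.05 for wild type, 11.51, 7.91 and 11.09 for Foxn1 mutants, and 10.90, 11.03 and 11.30 for Tbx1 mutants, low on the same arrays as Krt8. On those arrays Dsc2 was under the negative controls' 95th percentile. Desmoplakin, Dsp, which binds the keratins directly, read 10.09 and 11.19 on the low arrays and 11.53 to 12.60 elsewhere. Plakophilin 1, Pkp1, read 4.54 and 5.41 there and 6.99 to 8.25 elsewhere, and exceeded the negative controls' 95th percentile on only 1 array. Evpl, also of low F-test p, had genotype means between 5.97 and 6.27 and was under that level on every array.

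Among 12 genes of epithelial identity, all measured, 5 exceeded the negative controls' 95th percentile on 5 or more arrays. Of the 12, 1 passed in 1 comparison, Tbx1 mutant minus wild type, where 0.0135% of all clusters did. Cldn7, a claudin of tight junctions, fell by 2.14 ± 0.23 log2 units in the Tbx1 mutants (SE; adjusted p = 0.0355 in limma) and was at -2.05 without the 2 low arrays (adjusted p = 0.0881). All 3 Tbx1 mutant values of Cldn7 (7.20 to 7.98) were under the negative controls' 95th percentile of their arrays. The size of its fall is therefore not measured beyond that level. Cldn7 did not follow the keratins, reading 9.94 and 8.94 on the low arrays. The trafficking gene Rab25 and the protease inhibitor gene Spint2 had the next lowest F-test p-values, with Tbx1 mutant minus wild type at -1.21 ± 0.40 and -0.67 ± 0.33, and were not called. Both were under the negative controls' 95th percentile on every array. Cdh1, the gene of E-cadherin, read 14.78 and 15.25 on the low arrays and 15.29 to 16.25 elsewhere, and Epcam read 8.33 and 8.82 against 7.97 to 8.83. Epcam exceeded the negative controls' 95th percentile on 4 arrays and on neither low array, so a drop of Epcam could hardly show there. When each array was centred on Epcam and Cdh1, 0 members passed in any comparison, Tbx1 mutant minus wild type of Krt5 was 1.45 and that of Trp63 0.55, and the direction turned for Krt15 (Tbx1 mutant minus wild type) and Trp63 (Foxn1 mutant minus Tbx1 mutant).

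The low arrays, named above, held the 2 lowest of the 9 values for 5 of the 8 members, namely Krt5, Krt8, Krt17, Krt18 and Trp63, and for 12.1% of all clusters. They held them for 8 of 10 cortical thymic epithelial genes, among them Prss16 and Psmb11, by which these arrays were told apart, for 9 of 9 leukocyte genes, 4 of 9 desmosome and linker genes, 6 of 18 p63-linked genes, 4 of 12 epithelial identity genes, 2 of 41 other keratins and 0 of 9 medullary thymic epithelial genes. Only 1 of these other keratins and 2 of these medullary genes exceeded the negative controls' 95th percentile on 5 or more arrays, so most of them had no clear signal that could be low. Of the 9 leukocyte genes, too, only 2 exceeded that level on 5 or more arrays, so their count is mostly of genes without a clear signal. The median over each list of the value minus the gene's own median was -2.56 and -2.25 on these arrays for the 8 members, -2.28 and -1.80 for cortical thymic epithelium, -0.81 and -0.43 for desmosomes and linkers, -0.65 and -0.21 for p63-linked genes and -0.60 and -0.21 for epithelial identity. Of the 8 members 5 exceeded the negative controls' 95th percentile on 5 or more arrays, and of the 10 cortical genes 7. Only 3 of 9 desmosome and linker genes, 6 of 18 p63-linked genes and 5 of 12 epithelial identity genes did so. Most genes of these last lists thus had no clear signal that could drop, which limits how far their medians can fall. The 8 members and the other lists were not tested against each other. Of the cortical list, Ccl25, Cxcl12 and Cd83 had the lowest F-test p-values, and of the medullary list, which Krt5 is known to accompany, Ccl21a, Cldn4 and Cldn3 had. Ccl21a, a chemokine gene, was at -3.76 in Tbx1 mutant minus wild type (adjusted p = 0.151 in limma) and 0 genes of either list passed. Neuronal genes were high on wild type replicate 1, where their list mean was 12.59 (5.93 to 6.33 elsewhere), and mesenchymal genes were highest on Foxn1 mutant replicate 2, at 13.35 (11.62 to 12.75 elsewhere). The leukocyte list mean was 4.20 and 4.16 on the low arrays and 6.73 to 8.68 elsewhere. The part of these cells in the low keratin values was not tested.

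**Figure D4:**
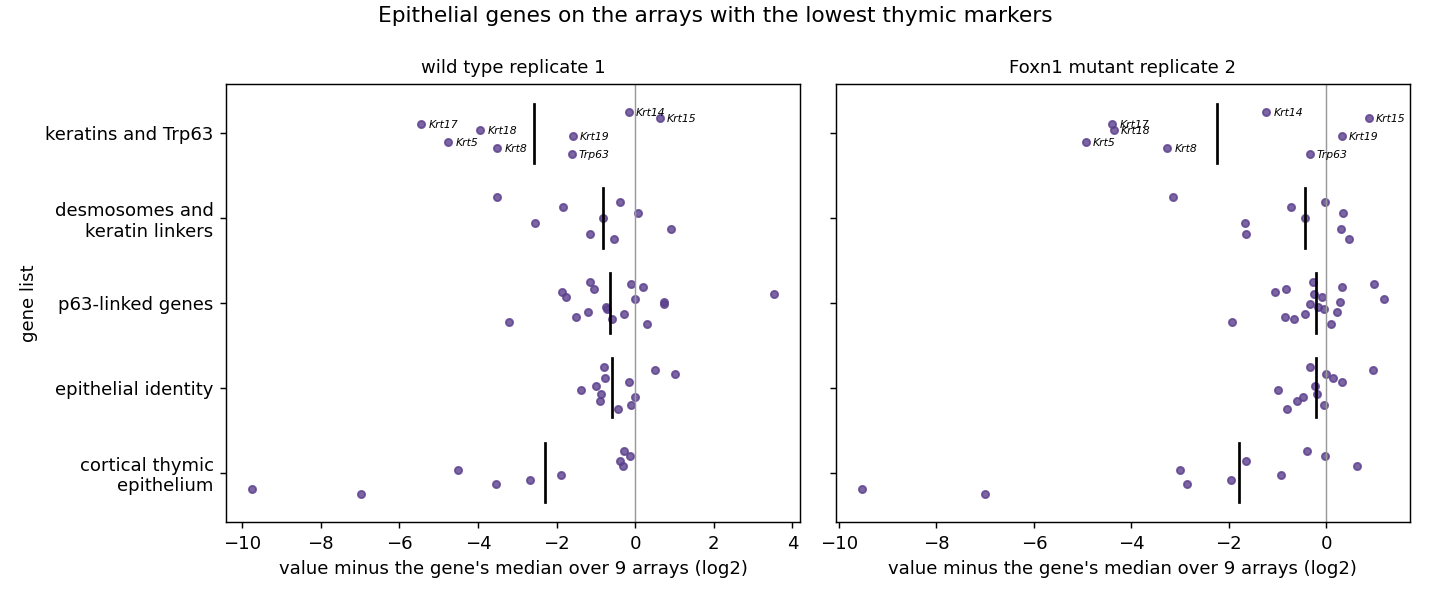
Value for wild type replicate 1 (left) and Foxn1 mutant replicate 2 (right) minus the gene's median over the 9 arrays (log2), 1 point per gene, for the 8 genes and 4 lists, with the list's median as a line. Krt17, Krt5, Krt18 and Krt8 lie between -5.45 and -3.27, while most p63-linked and epithelial identity genes lie within 2 units of 0 and Trp63 at -1.61 and -0.34. Only 6 of 18 p63-linked and 5 of 12 epithelial identity genes exceeded the negative controls' 95th percentile on 5 or more arrays. A drop of the others could hardly show.

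Markers of other epithelia that could carry these keratins were read beside them. Of the parathyroid genes 4 of 5 were measured, and their list mean was 4.95 to 5.28 on the Tbx1 mutants and 8.30 to 11.23 on the other arrays. Pth read 14.13 and 11.95 on the 2 arrays with low keratins and 6.07 to 7.06 on the Tbx1 mutants. Tbx1 mutant minus wild type passed the test for Pth, at -6.62, and for Chga, a gene of secretory granules, at -7.97 (adjusted p = 0.00892 for both in limma). In this comparison 0.0135% of all clusters passed. All Tbx1 mutant values of Pth and Chga were under the negative controls' 95th percentile of their arrays. The sizes of both falls are therefore not measured beyond that level. The Tbx1 mutant values of Krt8 and Trp63 lay within 15.63 to 15.96 and 12.90 to 13.17, beside the low parathyroid markers. Mesothelial genes, 5 of 6 measured, had a list mean of 4.73 to 6.21 for wild type, 6.65 to 7.73 for Foxn1 mutants and 6.62 to 8.09 for Tbx1 mutants. Only 1 of these 5 genes exceeded the negative controls' 95th percentile on 5 or more arrays. The mesothelial uroplakin gene Upk3b read 8.63, 5.62 and 9.63 for wild type, 11.50, 12.78 and 10.94 for Foxn1 mutants, and 11.48, 10.77 and 13.10 for Tbx1 mutants, without overlap between wild type and either mutant. Such separation from wild type was found for 8.29% of all clusters in Foxn1 mutants and for 9.45% in Tbx1 mutants. On wild type replicates 1 and 2, Upk3b was under the negative controls' 95th percentile. Upk3b did not pass in either comparison (adjusted p = 1.00 and 0.974 in limma). Krt7, a keratin that mesothelium also makes, was highest on wild type replicate 2 (10.59), where Upk3b was lowest, and next highest on Tbx1 mutant replicate 3 (10.24), where Upk3b was highest. Of the markers of thyroid, airway and other foregut epithelium, 9 of 10 were measured and 0 exceeded the negative controls' 95th percentile on any array. The part of these cells in the keratin values was not tested.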

How the data were processed

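The authors deposited log2 values of 9 Clariom S arrays in a single matrix of 28846 features with values between 1.47 and 19.92; the log2 scale was read from the deposited range, and neither the software nor the normalization nor a build is stated in the labels. The 6640 control features were left out of the fits, leaving 22206 transcript clusters, of which 19572 had 1 gene symbol in GEO's platform annotation and 2634 none. Groups followed the genotype label, with replicates numbered in accession order.

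A model with a term per genotype was fitted to all clusters of the 9 arrays by limma (3.58.1, under R 4.3.3), with empirical Bayes moderation, two-sided tests and Benjamini-Hochberg adjustment over all clusters, at a threshold of 0.05. Exact permutation tests over 3 against 3 arrays were two-sided. The fit was tested on simulated data. The members, the gene lists, the rule for named genes and the decision to leave out the 2 low arrays were chosen with earlier results of these data known, so no pattern seen there counts as independent support. Named were the members, called genes of each list or the 3 of lowest F-test p, and the 3 clusters nearest in pattern to each member; Krt1, Krt10, Krt13, Krt16, Krt7, Sfn, Perp, Dsc2, Cdh1, Epcam, Prss16, Psmb11 and Jup were named after their values were seen. Of the 8 members, 4 (Krt5, Krt8, Krt14 and Krt18) matched the RefSeq promoter table by symbol. Plots were made in matplotlib 3.10.9.

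Alternatives were quantile normalization, median centring, centring on Epcam and Cdh1, leaving out clusters with a mean under 4.51, trended robust moderation, array weights, date code blocks, only the arrays compared, arrays left out, other thresholds and a floor at the negative-control median.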

Additional observations from a re-analysis of the deposited data

How the results depend on the processing

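No member passed in any of the 3 comparisons or the F test under any alternative run, including quantile normalization, an adjusted threshold of 0.1 and an unadjusted threshold of 0.05. Directions of these uncalled differences did turn, and for each the cause was not tested beyond the arrays left out.

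The fit on 7 arrays, without the 2 low ones (replicate 1 of wild type, replicate 2 of the Foxn1 mutants), turned Foxn1 mutant minus wild type of Krt19 (-0.30), Tbx1 mutant minus wild type of Krt5 (-0.48), Krt8 (-0.11), Krt15 (0.14), Krt17 (-0.33) and Trp63 (-0.23), and Foxn1 mutant minus Tbx1 mutant of Krt5 (0.13), Krt14 (0.50), Krt15 (-0.0301) and Krt17 (0.37). The date code as a fixed block turned Foxn1 mutant minus wild type of Krt17 (-1.42) and Krt19 (-0.12), Tbx1 mutant minus wild type of Krt19 (0.28), and Foxn1 mutant minus Tbx1 mutant of Krt19 (-0.40) and Trp63 (-0.68). Array weights turned Foxn1 mutant minus wild type of Krt19 (-0.0315), Tbx1 mutant minus wild type of Krt15 (0.0309) and Trp63 (-0.0282), and Foxn1 mutant minus Tbx1 mutant of Krt14 (0.11). Centring on Epcam and Cdh1 turned Tbx1 mutant minus wild type of Krt15 (0.10) and Foxn1 mutant minus Tbx1 mutant of Trp63 (-0.10).

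With 1 array left out at a time, the lowest adjusted p was 0.846. Foxn1 mutant minus wild type ranged from -2.004 to 1.36 for Krt5, -1.39 to 0.97 for Krt8, -0.32 to 0.77 for Krt14, -0.15 to 0.41 for Krt15, -1.54 to 1.96 for Krt17, -1.49 to 1.33 for Krt18, -0.34 to 1.26 for Krt19 and -0.083 to 0.80 for Trp63. Tbx1 mutant minus wild type ranged from -0.48 to 2.25 for Krt5, -0.11 to 1.81 for Krt8, -0.0417 to 0.59 for Krt14, -0.31 to 0.14 for Krt15, -0.33 to 2.70 for Krt17, -1.05 to 0.55 for Krt19 and -0.23 to 0.66 for Trp63. Foxn1 mutant minus Tbx1 mutant ranged from -2.38 to 0.13 for Krt5, -0.60 to 0.50 for Krt14, -0.0301 to 0.51 for Krt15 and -2.03 to 0.37 for Krt17.

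Each member has 1 cluster, so averaging clusters per symbol gave no other value. No paired analysis was possible because the labels give no replicate numbers that pair samples across genotypes; the date codes, which span genotypes, were fitted as a block instead. With 3 arrays a genotype, and Krt14, Krt15 and Krt19 under the 95th percentile of the negative controls on all arrays, small differences were not detectable. For the keratins that dropped on the low arrays, larger ones were not either. For Krt5, Foxn1 mutant minus wild type had a 95% interval of -3.82 to 3.24 over all 9 arrays. Its SE was 1.57 there and 0.33 without the 2 low arrays.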
